A study of Mus musculus with 73 samples.

Results

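The genes described here are 9 integrin chains of microglia, led by Itgax, which encodes the alpha chain CD11c. They were found by name, and all 9 were present among the 39179 genes of each of the 3 deposited tables. Expression was measured by RNA sequencing of microglia, the resident macrophages of the brain, which had been sorted from mouse brains by flow cytometry on CD11b and CD45. There were 73 libraries, all from C57BL/6 mice. CD11b is the protein product of Itgam, so every library came from cells chosen for the product of a gene described here.

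The mice were 5xFAD, a transgenic amyloid model whose transgenes are expressed in neurons from a Thy1 promoter, with or without deletion of a microglial receptor. At 4 months of age there were 2 libraries of 5xFAD;CD33-/-;TREM2-/- mice, here called double knockouts. The same table held 4 of 5xFAD;CD33-/- (CD33 knockouts), 4 of 5xFAD;TREM2-/- (TREM2 knockouts), 9 of 5xFAD and 7 of wild type (WT). At 8 months, a table here called the TREM2 table held 8 TREM2 knockouts, 10 5xFAD and 6 WT, and the CD33 table held 12 CD33 knockouts and 11 5xFAD. All knockouts carried the 5xFAD transgenes, so no library showed receptor loss without amyloid. TREM2 is an activating receptor for lipids and lipoproteins, and CD33 is an inhibitory receptor that binds sialic acid.

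Integrins are adhesion receptors made of an alpha and a beta chain, and a chain reaches the cell surface only with its partner. On leukocytes, Itgb2 (CD18) pairs with Itgam to form complement receptor 3 (CD11b/CD18), with Itgax to form CD11c/CD18, and with Itgal to form LFA-1, which binds ICAM molecules. Itgb1 pairs with many alpha chains, among them Itga4 and Itga6, and Itgav pairs with Itgb5 and other beta chains to form receptors for ligands that carry an RGD motif and for latent TGF-beta. CD11c is widely used as a surface marker of microglia that gather around amyloid plaques, while CD11b is present on microglia in general.

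Itgax and Itgam are neighbours, and the stretch before each start is shown because these 2 genes moved in opposite directions in the data. On GRCm38, in GENCODE release M21, both lie on the plus strand of chromosome 7. Itgam spans 128062640 to 128118491 and Itgax 128129547 to 128150657, so 11.1 kb separate the end of Itgam from the start of Itgax. Itgal lies 727.5 kb before Itgam on the same strand. The sequences are the 250 bases before the RefSeq start, from RefSeq annotation of GRCm38.p6, at chr7:128129300-128129549 for Itgax and chr7:128062390-128062639 for Itgam, both on the plus strand. Capitals mark matches on either strand to the PU.1-like core GAGGAA or the AP-1-like TGANTCA.
Itgax promoter: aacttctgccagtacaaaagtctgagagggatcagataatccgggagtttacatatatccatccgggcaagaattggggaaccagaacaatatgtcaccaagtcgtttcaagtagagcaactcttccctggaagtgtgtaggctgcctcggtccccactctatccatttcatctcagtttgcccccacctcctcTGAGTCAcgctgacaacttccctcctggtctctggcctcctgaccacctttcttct
Itgam promoter: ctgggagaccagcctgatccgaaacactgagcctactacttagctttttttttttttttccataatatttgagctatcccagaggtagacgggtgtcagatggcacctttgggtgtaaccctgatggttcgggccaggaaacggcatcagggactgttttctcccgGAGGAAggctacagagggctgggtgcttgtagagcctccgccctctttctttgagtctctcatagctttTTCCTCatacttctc
The Itgax window held 1 match to TGANTCA, starting 56 bases before the start, and none to GAGGAA. The Itgam window held 2 matches to GAGGAA, starting 84 and 15 bases before the start, and none to TGANTCA. Among 32851 windows of that length before annotated mouse starts, 6.7% held TGANTCA and 23.3% held GAGGAA. An interferon-response-like motif, GAAA followed by any 2 bases and GAAA, present in 3% of windows, and the E-box CACGTG, present in 6%, were in neither. All 4 motifs were searched on both strands, and TGANTCA and CACGTG, which read the same on each, were counted once per place; no matches overlapped. The match nearest the Itgam start is on the minus strand and reads TTCCTC here. A match is a string of letters and does not show that a factor binds there.

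Recovered totals were 21188034 to 79654244 reads per library. Trem2 averaged 32.3 ± 3.02 RPKM (reads per kilobase, scaled to library size) in the TREM2 knockouts at 4 months (SD, n = 4), against 740.3 ± 90.4 RPKM in 5xFAD (n = 9). At 8 months, Trem2 averaged 18.06 ± 2.86 RPKM in TREM2 knockouts (n = 8) and 808 ± 104 RPKM in 5xFAD (n = 10). Cd33 stood at 0.205 RPKM or lower in all 4 CD33 knockouts at 4 months, against 115.2 to 151.7 RPKM in 5xFAD. The libraries labelled double knockout replicate 1 and, at 8 months, CD33 knockout replicate 7 went against their labels, with 14.02 and 19.14 RPKM of Cd33, and Itgax is given below with and without them. Summed over 8 endothelial markers such as Cldn5, levels at 8 months were 554 to 1432 RPKM in TREM2 knockouts, 379 to 1159 in 5xFAD and 170 to 469 in WT. The sum over 8 microglial markers such as P2ry12 was 9224 to 13989 RPKM in TREM2 knockouts, 9001 to 13705 in 5xFAD and 15589 to 17810 in WT. These markers were thus at high level in each group, but lower in TREM2 knockouts and 5xFAD than in WT. All 8 were called lower in 5xFAD against WT, with a median log2 difference of -0.80, beside 58.8% of all genes called. In TREM2 knockouts against WT 7 were, with a median of -0.68, beside 42.3% of all genes. Falls of single integrin genes given below were not tested against this drop.

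RPKM is scaled to gene length, so levels can be set beside each other between genes. In WT microglia at 4 months the highest of the 9 was Itgb5 at 796.3 ± 77.5 RPKM, followed by Itgam at 419.1 ± 20.2 and Itgb2 at 216.2 ± 21.6 (SD, n = 7). Itgb1 at 88.21 ± 7.92 and Itga6 at 53.35 ± 4.02 came next. Itgav at 16.6 ± 1.54 and Itgax at 5.58 ± 0.643 were lower, and the last were Itgal at 0.418 ± 0.352 and Itga4 at 0.154 ± 0.0345. The WT ranges of neighbours in this order did not overlap, apart from Itgal and Itga4. The order in WT was the same at 8 months. In 5xFAD, Itgax passed Itgav at 4 months, and at 8 months its mean of 133.6 ± 26 RPKM stood above Itgb1 at 98.55 ± 6.22 (n = 10).

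Itgax was higher in 5xFAD than in WT at both ages, by far the largest difference among the 9 genes. At 4 months the 5xFAD libraries ran from 22.31 through a median of 51.53 to 75.09 RPKM, against 4.371, 5.564 and 6.545 RPKM in WT. At 8 months the lowest, median and highest 5xFAD libraries of the TREM2 table held 100.4, 133.4 and 182.3 RPKM, against 5.467, 7.589 and 8.649 RPKM in WT. No 5xFAD library came down into the WT range at either age. On the log2(RPKM + 0.5) scale the difference was 2.91 ± 0.228 at 4 months (standard error, limma adjusted p = 3.6e-09, 9 of 9 libraries above the WT mean). At 8 months it was 4.08 ± 0.136 (limma adjusted p = 2.57e-17, 10 of 10), a 17-fold difference on that scale. The 4-month 5xFAD group was also the more uneven, its highest library holding more than 3 times the Itgax of its lowest, and WT libraries lay close together. Bulk libraries cannot tell more CD11c-bearing cells from more Itgax RNA per cell.

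**Figure D1:**
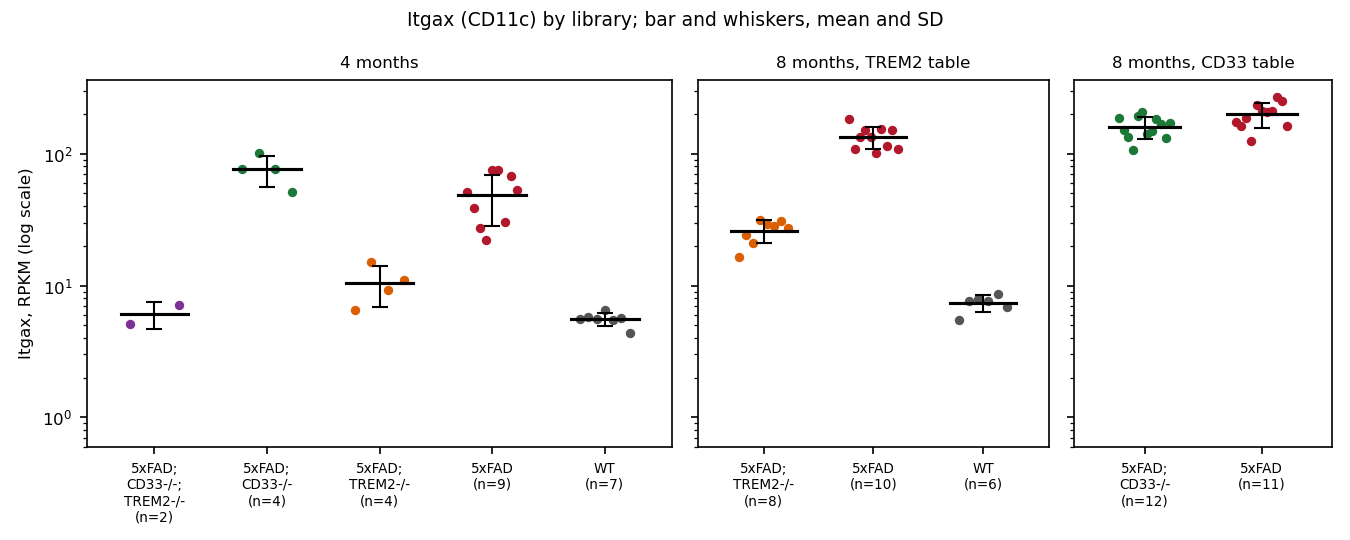
Itgax in every library, in RPKM on a log scale, by genotype in each of the 3 tables; points are libraries, and the bar and whiskers are the mean and SD. At 8 months TREM2 knockouts sit between 16.46 and 31.23 RPKM, under every 5xFAD library (100.4 or higher) and over every WT library (8.649 or lower).

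Loss of TREM2 lowered Itgax in 5xFAD at both ages. At 4 months the 4 TREM2 knockouts held 6.487, 9.216, 10.93 and 15.03 RPKM, all under the lowest 5xFAD library at 22.31 RPKM. The log2 difference was -2.12 ± 0.272 (limma adjusted p = 3.01e-05, lower in 4 of 4). At 8 months the TREM2 knockouts ran from 16.46 through a median of 27.59 to 31.23 RPKM, against 100.4, 133.4 and 182.3 RPKM in 5xFAD. That log2 difference was -2.34 ± 0.125 (limma adjusted p = 1.21e-12, lower in 8 of 8). Both groups kept well apart at each age. The titles of TREM2 knockout replicates 4 and 5 at 8 months share a number, with no label to say whether 1 animal gave both. Without replicate 4 the difference was -2.30 (adjusted p = 8.72e-12), and without replicate 5 it was -2.38 (adjusted p = 3.96e-12).

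Against WT, Itgax in the TREM2 knockouts was higher in estimate at both ages, and the difference was called at 8 months only. At 4 months 3 of the 4 lay above the WT range, which ended at 6.545 RPKM, and the log2 difference of 0.79 ± 0.283 was not called (limma adjusted p = 0.501, 95% interval 0.21 to 1.38, above the WT mean in 4 of 4). At 8 months every TREM2 knockout lay above every WT library, and Itgax was 3.35-fold higher on the log2(RPKM + 0.5) scale, a log2 difference of 1.74 ± 0.142 (limma adjusted p = 4.19e-09, 8 of 8). Itgax thus rose at 8 months in 5xFAD mice that lacked TREM2, to a level under that of every 5xFAD library with TREM2. The ages stand in separate tables and were not tested against each other.

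CD33 loss alone gave no called difference in Itgax, and the estimates pointed in opposite directions at the 2 ages. At 4 months the CD33 knockouts held 50.83, 76.16, 76.43 and 100.9 RPKM, overlapping the upper part of the 5xFAD range of 22.31 to 75.09. The log2 difference was 0.71 ± 0.272 (limma adjusted p = 0.0997, higher in 4 of 4, 95% interval 0.15 to 1.27). It passed the threshold at 0.89 without CD33 knockout replicate 4 (adjusted p = 0.0397) and at 1.02 with the number that the titles give after GAa as a term (adjusted p = 0.0389), and was 0.41 with the endothelial marker level as a covariate (adjusted p = 0.824). Within the 3 such numbers that held both genotypes the difference ran from 0.85 to 1.38. The CD33 knockouts of 8 months ran from 106.7 through 159.1 to 207.5 RPKM, against 125.5, 204.9 and 270 RPKM in 5xFAD. Here the log2 difference was -0.31 ± 0.121 (limma adjusted p = 0.243, lower in 11 of 12, 95% interval -0.56 to -0.06). Without the library whose Cd33 went against its label it was -0.31 (adjusted p = 0.31), and with the GAa number as a term it was -0.29 (adjusted p = 0.0409). All 8 endothelial markers were called higher in these CD33 knockouts than in 5xFAD, beside 3.3% of all genes, with a median log2 difference of 1.06. With their mean level as a covariate Itgax differed by -0.16 and was not called.

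In the double knockouts Itgax stood at 5.129 and 7.124 RPKM, against 50.83 to 100.9 RPKM in CD33 knockouts. With CD33 absent, TREM2 loss went with a log2 difference in Itgax of -3.51 ± 0.392 (limma adjusted p = 5.7e-06, lower in 2 of 2), and by -3.29 without the library labelled double knockout replicate 1 (adjusted p = 0.00112). Against TREM2 knockouts, with values from 6.487 to 15.03 RPKM, the double knockouts differed by -0.68 ± 0.392, which was not called (limma adjusted p = 0.899, 95% interval -1.49 to 0.13), and by -0.46 without that library. Whether TREM2 loss had a larger effect without CD33 was tested as the difference of the 2 differences. For Itgax it was -1.39 ± 0.477 (limma adjusted p = 0.91, unadjusted p = 0.00764), with 2 double knockout libraries behind it, and -1.17 without the library whose Cd33 went against its label.

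How the 9 genes compared with the rest of the transcriptome was read from counts of calls, an adjusted p under 0.05 over all tested genes. Itga4 never reached the level tested, so 8 members were tested in each comparison. In 5xFAD against WT at 4 months 3 of the 8 were called, 1 higher and 2 lower, against 16.7% of all genes tested, and at 8 months 6 were, 3 higher and 3 lower, against 58.8%. The members' median log2 differences were -0.04 and -0.09, and -0.02 over all genes at each age. Between TREM2 knockouts and 5xFAD, Itgax was the 1 member called at 4 months, against 2.39% of genes, and 4 were called at 8 months, all lower, against 17.3%. Their median log2 difference at 8 months was -0.10, and 0.02 over all genes. For TREM2 knockouts against WT no member was called at 4 months (0.399% of genes; 1 member at an unadjusted p under 0.05, 0 by voom) and 5 were at 8 months (42.3% of genes). CD33 knockouts differed from 5xFAD in no member at either age, with 1 at an unadjusted p under 0.05 each time and 0 by voom, against 4.9% of genes at 4 months and 3.3% at 8 months. For double knockouts Itgax was the member called against CD33 knockouts (4.91% of genes). No member was called against TREM2 knockouts (0.0691% of genes, 0 members at an unadjusted p under 0.05, 0 by voom). None was called in the difference of differences either (0% of genes by limma, with 664 genes and 1 member at an unadjusted p under 0.05, and 0 members by voom).

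**Figure D2:**
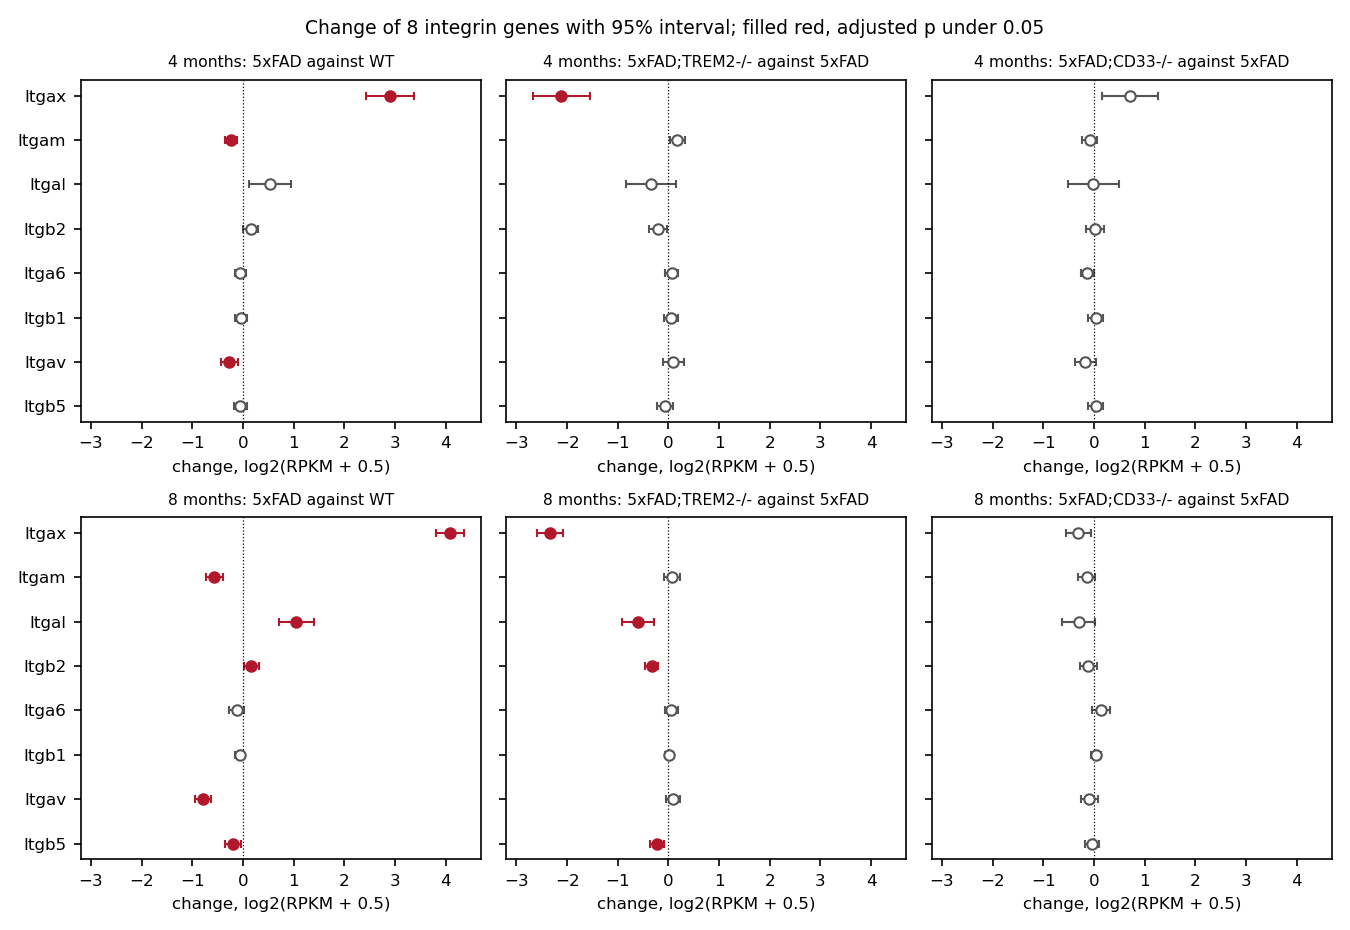
Change of the 8 tested integrin genes on the log2(RPKM + 0.5) scale with its 95% interval, at 4 months (upper row) and 8 months (lower row); filled red points have an adjusted p under 0.05. Itgax lies at 2.91 and 4.08 for 5xFAD against WT and at -2.12 and -2.34 for TREM2 knockouts against 5xFAD, while each other gene stays within 1.06 of 0.

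Itgam, the alpha chain of complement receptor 3, fell in 5xFAD while its neighbour Itgax rose. At 8 months the 5xFAD libraries ran from 258.1 through a median of 289.1 to 361.8 RPKM, against 401, 451.3 and 488.9 RPKM in WT, with no overlap. The log2 difference was -0.56 ± 0.0802 (limma adjusted p = 2.65e-06, lower in 10 of 10). At 4 months the ranges of 303.9 to 404.4 RPKM in 5xFAD and 396.2 to 448.1 RPKM in WT met, and the difference was -0.23 ± 0.0574 (limma adjusted p = 0.00682, lower in 9 of 9). TREM2 loss did not bring a called change in Itgam. At 8 months the TREM2 knockouts held 260.7 to 383.3 RPKM, within a log2 difference of 0.07 of 5xFAD (95% interval -0.08 to 0.23) and under every WT library, a difference from WT of -0.49 ± 0.0838 (limma adjusted p = 6.75e-05, lower in 8 of 8). Endothelial markers were higher where Itgam was lower. With their mean level as a covariate, the difference of 5xFAD from WT was -0.11 at 4 months (adjusted p = 0.136) and -0.24 at 8 months (adjusted p = 0.0274), and that of TREM2 knockouts from WT at 8 months was -0.09 (adjusted p = 0.627). Between TREM2 knockouts and 5xFAD, Itgam reached the threshold in those fits, at 0.18 at 4 months (adjusted p = 0.0354) and 0.15 at 8 months (adjusted p = 0.0395). Itgax differed by 2.67, 4.39 and 2.12 in the same fits of the 3 comparisons with WT.

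Itgal, the alpha chain of LFA-1, was near the floor of these data, at 18 to 232 reads per WT library at 4 months. Even so it rose in 5xFAD at 8 months, to 1.051, 1.601 and 2.627 RPKM (lowest, median, highest), against 0.419, 0.5 and 0.896 RPKM in WT, with no overlap. The log2 difference was 1.06 ± 0.166 (limma adjusted p = 9.68e-06, higher in 10 of 10). No WT library reached 1 RPKM, so Itgal entered this test only through the groups where it was high. With no filter on low values the limma adjusted p was 2.09e-05. TREM2 knockouts at 8 months fell to 0.336, 1.043 and 1.433 RPKM, a difference from 5xFAD of -0.60 ± 0.152 (limma adjusted p = 0.00766, lower in 8 of 8), with overlapping ranges. Against WT they were 0.46 higher (limma adjusted p = 0.0342), and that call was lost when TREM2 knockout replicate 3, 5, 6, 7 or 8 or WT replicate 1, 6, 7, 8 or 9 was left out. At 4 months 5xFAD ran from 0.264 to 1.547 RPKM against 0.109 to 1.17 RPKM in WT, and the difference of 0.54 was not called (limma adjusted p = 0.0723). It passed the threshold without WT replicate 2 (0.69, adjusted p = 0.0143), 5xFAD replicate 7 (0.60, adjusted p = 0.0431) or 5xFAD replicate 13 (0.63, adjusted p = 0.0259), and by voom on recovered reads (1.21, adjusted p = 0.0445), and was 0.26 with the endothelial covariate (adjusted p = 0.506). T and NK cells also express Itgal. Their 7 markers summed to 0.435 to 2.08 RPKM in TREM2 knockouts, 1.08 to 3.02 RPKM in 5xFAD and 0.146 to 0.487 RPKM in WT at 8 months. None of them reached the level tested in any table. Cd3d averaged 0.0393 RPKM in TREM2 knockouts and 0.0564 in WT, and Klrb1c 0.0498 and 0.0571. The other markers averaged higher in TREM2 knockouts than in WT, and each of the 7 averaged highest in 5xFAD. Neutrophil markers were present too, with S100a9 at 288.4 ± 249, 209.7 ± 213 and 205.3 ± 178 RPKM in the same groups. Of 7 neutrophil and 3 monocyte markers, 0 were called in 5xFAD against WT at 8 months, beside 58.8% of all genes. Between TREM2 knockouts and 5xFAD 0 were called either, beside 17.3%. The part of these cells in the Itgal result was not tested.

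The shared partner chain Itgb2 moved far less. At 8 months TREM2 knockouts held 160.9 to 201.6 RPKM, against 180.7 to 265 RPKM in 5xFAD, a log2 difference of -0.33 ± 0.0629 (limma adjusted p = 0.000568, lower in 8 of 8). 5xFAD exceeded WT, at 187.7 to 215.3 RPKM, by 0.17 ± 0.0684 (limma adjusted p = 0.0388), a call lost without 5xFAD replicate 2, 7, 8, 9 or 10 or WT replicate 1, 6, 7, 8 or 9. TREM2 knockouts differed from WT by -0.16 ± 0.0716, which was not called (limma adjusted p = 0.073), and their ranges overlapped. At 4 months Itgb2 lay at 193.7 to 261.5 RPKM in 5xFAD and 186.2 to 243.2 RPKM in WT, and its difference of 0.15 was not called (limma adjusted p = 0.147). The double knockouts, at 179 and 190.3 RPKM, lay under all 4 CD33 knockouts, at 222.1 to 269.9 RPKM, by -0.39 ± 0.122, short of the threshold (limma adjusted p = 0.0628). The value of 179 RPKM is from replicate 1, whose Cd33 went against its label.

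Set together, 3 alpha chains that pair with Itgb2 differed in make-up between the groups. Neither their shares nor their sum was tested. Itgax contributed 12% ± 4.87 of the summed RPKM of Itgax, Itgam and Itgal in 5xFAD at 4 months (SD, n = 9), against 1.31% ± 0.153 in WT (n = 7). At 8 months it contributed 7.48% ± 1.36 in TREM2 knockouts, 30.2% ± 3.6 in 5xFAD and 1.6% ± 0.219 in WT. In the CD33 table the share was 34.3% ± 4.94 in CD33 knockouts and 36.9% ± 4.76 in 5xFAD. The sum of the 3 chains in the TREM2 table averaged 349 ± 41 RPKM in TREM2 knockouts, 441 ± 52.8 in 5xFAD and 458 ± 31.8 in WT, and its ratio to Itgb2 was 1.94, 1.96 and 2.29 in that order. These shares are ratios of RNA levels and say nothing of how much of each receptor stood at the surface.

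**Figure D3:**
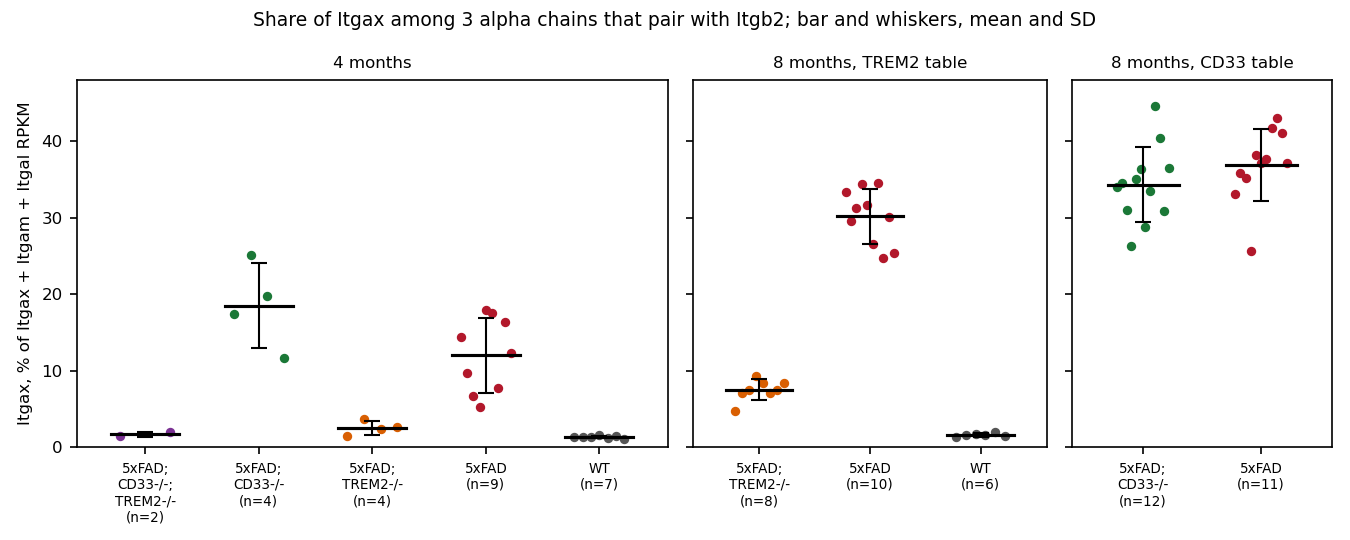
Share of Itgax in the summed RPKM of Itgax, Itgam and Itgal per library, in percent, by genotype in each table; points are libraries, and the bar and whiskers are the mean and SD. The mean share is 7.48% in TREM2 knockouts, 30.2% in 5xFAD and 1.6% in WT at 8 months.

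Among the chains that bind RGD ligands, Itgav fell in 5xFAD. At 8 months its 5xFAD libraries ran from 8.068 through a median of 9.424 to 10.9 RPKM, against 15.33, 16.6 and 17.93 RPKM in WT. The groups did not overlap, and the log2 difference was -0.79 ± 0.0721 (limma adjusted p = 3.39e-09, lower in 10 of 10). TREM2 knockouts, at 8.543, 9.913 and 11.7 RPKM, were also under every WT library, by -0.69 ± 0.0754 (limma adjusted p = 3.63e-07, lower in 8 of 8), and within 0.09 of 5xFAD (95% interval -0.04 to 0.23). At 4 months 5xFAD ranged over 10.54 to 16.72 RPKM and WT over 14.52 to 18.22 RPKM, a difference of -0.27 ± 0.0817 (limma adjusted p = 0.0251, lower in 8 of 9), which was -0.13 with the endothelial covariate (adjusted p = 0.34). That call was also lost without 5xFAD replicate 8 (adjusted p = 0.054) or WT replicate 10 (adjusted p = 0.0604). At 8 months the difference with the covariate was -0.59 (adjusted p = 4.34e-05).

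Itgb5, a partner of Itgav and the most abundant of the 9, was lower in the same direction at 8 months. TREM2 knockouts held 531.6 to 687.1 RPKM, 5xFAD 560.5 to 792.6 and WT 694.3 to 833.4. TREM2 knockouts lay under every WT library, by -0.42 ± 0.0786 (limma adjusted p = 0.00016), and differed from 5xFAD by -0.23 ± 0.0691 (limma adjusted p = 0.0254). 5xFAD differed from WT by -0.20 ± 0.0752 (limma adjusted p = 0.0287). With the endothelial covariate these 3 differences were -0.05 (adjusted p = 0.786), -0.16 (adjusted p = 0.0234) and 0.10 (adjusted p = 0.341), so the last turned its sign. The call against 5xFAD was lost without TREM2 knockout replicate 4, 5 or 9, at adjusted p from 0.0509 to 0.0564, and that of 5xFAD against WT without 5xFAD replicate 5 or WT replicate 2, 6 or 7. At 4 months no difference in Itgb5 was called.

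**Figure D4:**
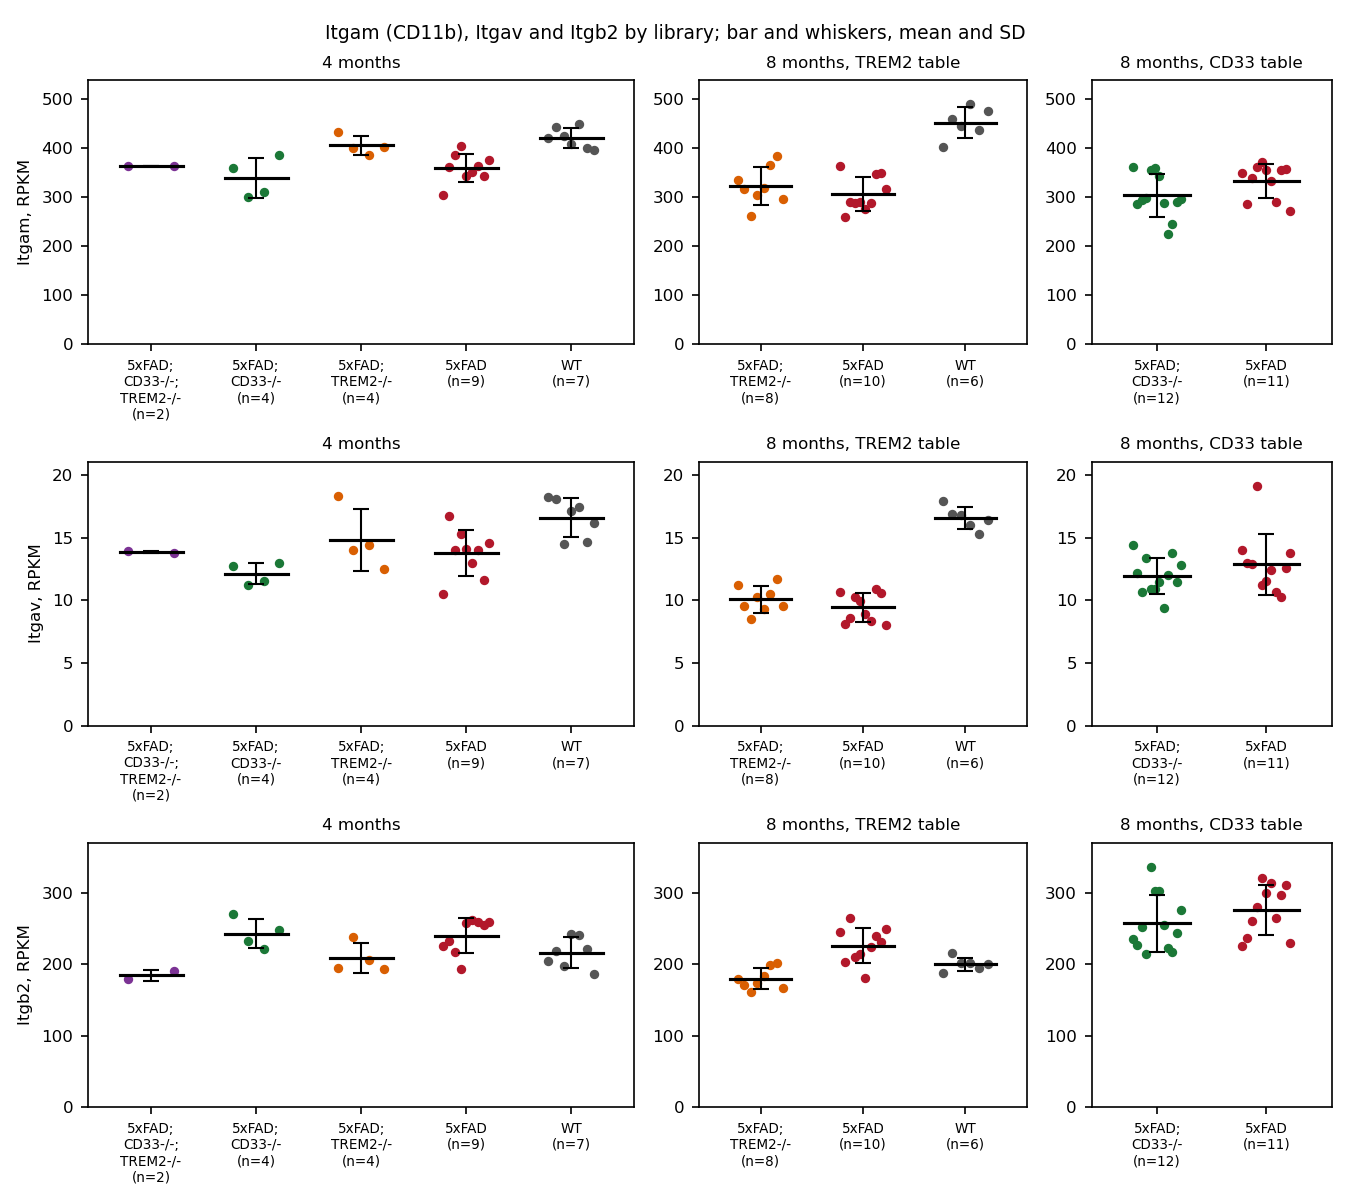
Itgam, Itgav and Itgb2 by library, in RPKM, by genotype in each table; points are libraries, and the bar and whiskers are the mean and SD. At 8 months both TREM2 knockouts and 5xFAD lie under every WT library for Itgam (401 RPKM or higher in WT) and for Itgav (15.33 RPKM or higher in WT). Mean Itgb2 is lowest in TREM2 knockouts, with a range that overlaps those of 5xFAD and WT and no called difference from WT.

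The remaining chains are the Itgb1 group. Itgb1, the common beta chain, averaged 99.65 ± 4.18 RPKM in TREM2 knockouts, 98.55 ± 6.22 in 5xFAD and 102.7 ± 2.72 in WT at 8 months, and it was called in none of the 11 tests. Itga6, a laminin-binding alpha chain, averaged 48.77 ± 3.92, 46.97 ± 5.85 and 50.92 ± 4.16 RPKM in the same groups and was called in none either. In 5xFAD against WT at 8 months the 95% intervals were -0.15 to 0.03 for Itgb1 and -0.27 to 0.03 for Itga6. Itga6 differed by -0.33 with the endothelial covariate (adjusted p = 0.00817), and endothelial cells also express it. Itga4, which with Itgb1 forms VLA-4, a receptor of blood leukocytes for VCAM1, stayed at 0.0861 to 0.803 RPKM in all 73 libraries. That is 40 to 475 reads, so it was detected but under the level tested in each table.

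Of 18 other integrin chains, 8 were tested at 4 months and 9 in the TREM2 table at 8 months. In 5xFAD against WT, 1 rose and 2 fell at 4 months, and 5 rose and 2 fell at 8 months, with a median log2 difference of 0.40 at 8 months against -0.02 over all genes. These calls were 37.5% and 77.8% of the chains tested, beside 16.7% and 58.8% of all genes. With the endothelial covariate 1 rose and 2 fell at 4 months, and 2 rose and 3 fell at 8 months. That covariate took the calls over all 12622 genes tested from 7428 to 3816 at 8 months. At 4 months the calls over all genes were 2181, and 1306 to 2214 over the alternative fits. Itga5, the alpha chain of the fibronectin receptor, followed the order of Itgax. At 8 months it ran from 15.15 through 18.41 to 20.28 RPKM in TREM2 knockouts, 24.09, 30.92 and 50.76 RPKM in 5xFAD, and 9.658, 10.72 and 11.94 RPKM in WT, with no overlap between any of the 3 groups. 5xFAD exceeded WT by 0.63 ± 0.0984 at 4 months (limma adjusted p = 6.17e-05) and 1.56 ± 0.121 at 8 months (limma adjusted p = 2.34e-10). TREM2 knockouts were under 5xFAD by -0.50 ± 0.117 (limma adjusted p = 0.0169) and -0.83 ± 0.111 (limma adjusted p = 6.89e-06), and double knockouts were under CD33 knockouts by -0.94 ± 0.169 (limma adjusted p = 0.001). The 2 double knockout libraries, 1 of which went against its label in Cd33, held 11.77 and 13.07 RPKM of Itga5, against 19.27 to 30.42 in CD33 knockouts. Itga5 was called between CD33 knockouts and 5xFAD at 4 months, at 0.41 ± 0.117 (limma adjusted p = 0.0475), and 0.30 with the endothelial covariate (adjusted p = 0.675). Itgax differed there in the same direction, by 0.71, without a call (limma adjusted p = 0.0997), and the 2 genes were not compared.

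Itga9, which binds tenascin and osteopontin, and Itgae, the CD103 chain, went the other way in 5xFAD against WT. Between TREM2 knockouts and 5xFAD at 8 months Itga9 was not called. Itga9 averaged 9.41 ± 1.91 RPKM in TREM2 knockouts, 7.96 ± 1.9 in 5xFAD and 20.42 ± 2.04 in WT at 8 months, a difference of 5xFAD from WT of -1.33 ± 0.135 (limma adjusted p = 1.76e-08). Itgae was 0.67 ± 0.214 RPKM in TREM2 knockouts, 0.404 ± 0.154 in 5xFAD and 1.18 ± 0.204 in WT. It fell by 0.90 in 5xFAD against WT (limma adjusted p = 2.39e-06) and was 0.37 higher in TREM2 knockouts than in 5xFAD (limma adjusted p = 0.0308). No 5xFAD library reached 1 RPKM of Itgae (highest 0.757), so it entered these tests only through the groups where it was higher. Itgb3, a further partner of Itgav, stood at 17.82 ± 2.26 RPKM in TREM2 knockouts, 22.3 ± 2.49 in 5xFAD and 17.97 ± 0.97 in WT. It was 0.30 higher in 5xFAD than in WT (limma adjusted p = 0.0017) and differed by -0.32 between TREM2 knockouts and 5xFAD (limma adjusted p = 0.00211). Itga1, a collagen-binding chain, rose at 8 months in 5xFAD by 1.21 (limma adjusted p = 0.000446), and lay at -0.19 with the endothelial covariate (adjusted p = 0.189). Between CD33 knockouts and 5xFAD at 8 months Itga1 and Itga3 were the 2 chains of 6 tested that rose, by 0.76 and 0.64 (limma adjusted p = 0.0375 and 0.0422). That is 33.3% of these chains, beside 3.3% of all genes. Both were lost with the covariate, which took the calls over all genes from 374 to 14.

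**Figure D5:**
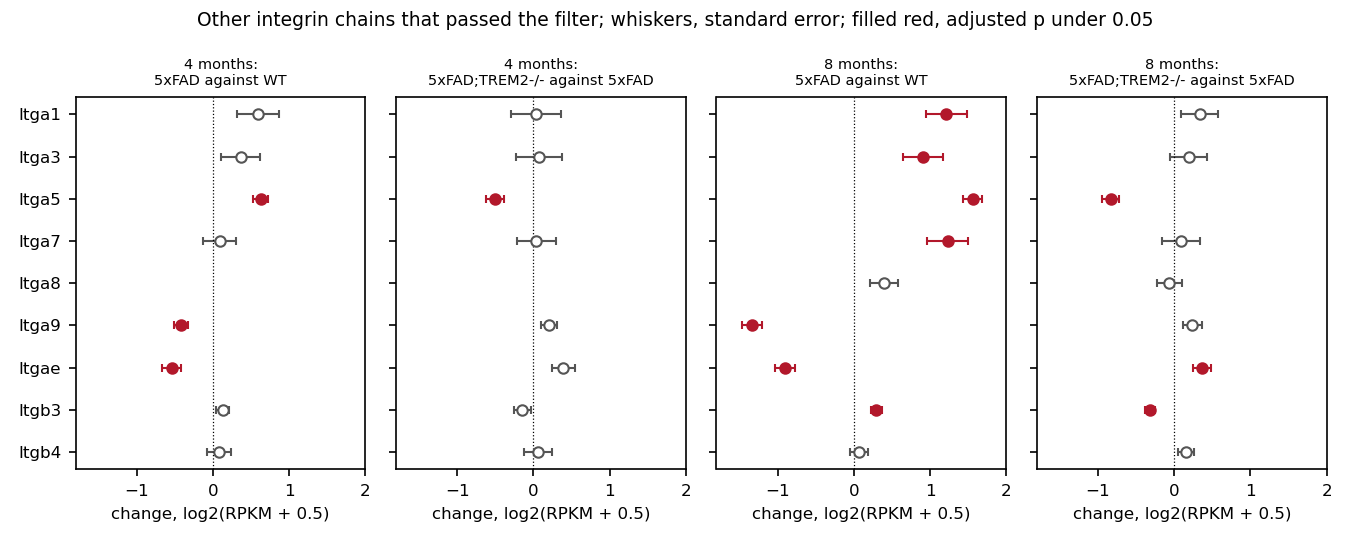
Change of the other integrin chains that were tested, on the log2(RPKM + 0.5) scale with its standard error, for 5xFAD against WT and TREM2 knockouts against 5xFAD at each age; filled red points have an adjusted p under 0.05. Itga5 is at 0.63 and 1.56 in 5xFAD against WT and at -0.50 and -0.83 in TREM2 knockouts against 5xFAD.

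The 32 genes of integrin activation and signalling all passed the filter in the 4-month and TREM2 tables. In 5xFAD against WT 3 rose and 8 fell at 4 months, and 11 rose and 14 fell at 8 months, with medians of -0.005 and -0.11 against -0.02 over all genes each time. The calls were 34.4% and 78.1% of the list, beside 16.7% and 58.8% of all genes. With the endothelial covariate 3 rose and 9 fell at 8 months, while the calls over all genes went from 7428 to 3816. Fgr, a Src-family kinase that acts below Itgb2 integrins in myeloid cells, took the course of Itgax. It averaged 1.77 ± 0.387 RPKM in TREM2 knockouts, 7.52 ± 1.41 in 5xFAD and 1.33 ± 0.249 in WT at 8 months. 5xFAD exceeded WT by 1.74 ± 0.172 at 4 months (limma adjusted p = 1.09e-07) and 2.12 ± 0.122 at 8 months (limma adjusted p = 8.78e-13). TREM2 knockouts lay under 5xFAD by -1.57 ± 0.205 (limma adjusted p = 3.24e-05) and -1.82 ± 0.112 (limma adjusted p = 1.31e-11). The related kinase Lyn and the kinase Syk fell instead in 5xFAD at 8 months, with log2 differences of -0.72 and -0.85 (limma adjusted p = 6.89e-09 and 1.35e-09). In TREM2 knockouts against 5xFAD, 1 gene of the 32 rose and 1 fell at 4 months, and 1 rose and 2 fell at 8 months. That is 6.25% and 9.38% of the list, beside 2.39% and 17.3% of all genes. With the covariate 5 rose and 2 fell at 8 months. Calls over all genes in that comparison were 2189, and 1822 to 3170 over the alternative fits.

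Of 23 genes for integrin ligands, 20 were tested at 4 months and 22 in the TREM2 table. In 5xFAD against WT 5 rose and 2 fell at 4 months, and 14 rose and 4 fell at 8 months. They made up 35% and 81.8% of the ligand genes tested, beside 16.7% and 58.8% of all genes. Spp1 (osteopontin), an RGD ligand, ran from 12.93 through 24.71 to 34.06 RPKM in TREM2 knockouts, 62.85, 117.9 and 590.3 RPKM in 5xFAD, and 7.96, 9.128 and 11 RPKM in WT at 8 months. The 3 groups did not overlap. 5xFAD exceeded WT by 3.78 ± 0.311 (limma adjusted p = 7.18e-10), and TREM2 knockouts were under 5xFAD by -2.54 ± 0.286 (limma adjusted p = 5.91e-07). C3, whose fragment iC3b binds CD11b/CD18 and CD11c/CD18, and Icam1, which binds Itgb2 integrins, rose at 8 months by 1.82 and 0.79 in 5xFAD (limma adjusted p = 1.51e-06 and 2.54e-06). They were lower in TREM2 knockouts than in 5xFAD, by -1.06 and -0.44 (limma adjusted p = 0.0019 and 0.00385). The median ligand gene differed by 0.35 and 0.79, against -0.02 over all genes at each age. With the endothelial covariate 1 rose and 3 fell at 4 months, and 4 rose and 3 fell at 8 months. Over all genes the covariate fit called 3816 at 8 months, against 7428 without it. The alternative fits at 4 months called 1306 to 2214 of all genes. Between CD33 knockouts and 5xFAD at 8 months Fn1, Col4a1 and Icam2 rose, 3 of 18 tested. That is 16.7% of the ligand genes, beside 3.3% of all genes. None was called with the covariate, in a fit that called 14 of all genes.

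Genes that varied across libraries as Itgax did were ranked by the lowest of 3 Spearman correlations, 1 per table, over 11205 genes tested in all 3 tables. Over all libraries (n = 26, 24 and 23) the first was Cadm1, an adhesion molecule, at 0.90, 0.95 and 0.91, followed by 0610031J06Rik, Asb10, Fgf1 and Pld3, a lysosomal protein, with lowest values from 0.86 to 0.85. Cadm1 averaged 29.1 ± 2.38 RPKM in TREM2 knockouts, 42.3 ± 5.15 in 5xFAD and 22.6 ± 0.773 in WT at 8 months. With group means subtracted, so that only the spread within genotypes counts, the first were Cst7, a cysteine protease inhibitor, at 0.88, 0.72 and 0.71, then Ank, Baiap2l2, Gas7 and the lysosomal Cd68. In the same sense Itgb2 stood at 0.51, 0.31 and 0.54 and Itgam at -0.54, 0.35 and 0.40, so Itgam libraries did not track Itgax in 1 direction within genotypes. Libraries of a table share their processing and differ in depth and cell content, and these values describe those libraries.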

How the data were processed

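The samples were 73 libraries of microglia sorted from brain, placed by their labelled genotype and age in 10 groups; none was dropped. The deposited values are RPKM in 3 tables, each normalized separately by the authors, so tests stayed within a table. The submitters' processing notes name STAR, HTSeq and edgeR with mm10 (GRCm38), without versions. The kit was stranded, per the labels, and the strand setting of the count is not given in the sources used here. RPKM times gene length gave whole reads for 100% of values within a tolerance of 0.05 reads, which gave the depths.

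Tests used limma 3.58.1 in R 4.3.3 (trended, robust, two-sided) on log2(RPKM + 0.5), a scale that compresses differences at low RPKM. A gene entered the test when its RPKM reached 1 in a number of libraries equal to the size of the table's smallest group, and all groups of a table shared 1 fit. Benjamini-Hochberg adjustment ran over every gene tested, with calls at an adjusted p below 0.05. A gene could enter through the groups where it is high, as Itgal and Itgae did. A ± is a standard error after a log2 difference and an SD after a mean. Nothing states that libraries are separate animals, and some titles carry 2 numbers, so p-values measure the spread between libraries. No library pair of a group agreed within counting error: over 279 pairs, chi-square divided by its degrees of freedom was 5.261 or more.

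The members, lists and tests were chosen with earlier results of these data known. Named beside the 9 members were Cd33, Trem2, up to 4 genes per list with the smallest p in a comparison, and the 5 genes most like Itgax; 1 gene that this rule selects is not reported here. Positions are from GENCODE M21 and promoter sequences from RefSeq, which matched 6 of the 9. Alternatives were the pseudocount, filter, scaling, voom on recovered reads, plain moderation, a fit of the compared groups alone, the number after GAa in the titles, a replicate block, an endothelial covariate and each library left out. The fit was tested on simulated data.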

Additional observations from a re-analysis of the deposited data

Results flagged for a closer look

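In groups of 4 to 10 libraries the 9 integrin genes were checked for a library far from the others of its group. Of 63 such checks 6 stood out, where chance alone gives about 5%. At 4 months, WT replicate 2 held 1.17 RPKM of Itgal against 0.109 to 0.43 RPKM in the other WT libraries, and TREM2 knockout replicate 1 held 106.4 RPKM of Itgb1 against 82.94 to 85.44 RPKM. In the TREM2 table at 8 months, TREM2 knockout replicate 4 held 58.16 RPKM of Itga6 against 46.15 to 49.03 RPKM. In the same table, 5xFAD replicate 9 held 0.803 RPKM of Itga4 against 0.227 to 0.415 RPKM. WT replicate 2 there held 0.896 RPKM of Itgal against 0.419 to 0.552 RPKM, and WT replicate 1 held 0.164 RPKM of Itga4 against 0.242 to 0.267 RPKM. No Itgax library was among them.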

How the results depend on the processing

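Of 275 alternative values for Itgax over the 11 tests, 272 kept their direction and side of the threshold and 3 passed it, all for CD33 knockouts against 5xFAD. With the GAa number of the titles as a term, Itgax was 1.02 at 4 months and -0.29 at 8 months, and 1 member in place of 0 was called each time. Leaving out 1 library gave 0.56 to 0.89 for Itgax at 4 months and 0 to 1 members called. In 5xFAD against WT at 4 months, 3 members were called, and 1 with the replicate block, 1 with the endothelial covariate and 2 to 5 without 1 library, 5 without 5xFAD replicate 13. With that covariate 2 members were called between TREM2 knockouts and 5xFAD at 4 months (1 without it) and 2 between TREM2 knockouts and WT at 8 months (5 without it). Itgb5 turned to 0.10 in 5xFAD against WT at 8 months with it. Among the other 8 members, 43 values lost a call and 12 gained one. The causes were not tested.

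Same-numbered libraries of different genotypes deviated together from their group means in some pairs but not in all. For TREM2 knockouts against 5xFAD at 8 months, 6 of 8 pairs correlated above 0.1 (r from -0.07 to 0.67). For CD33 knockouts against 5xFAD at 8 months 4 of 11 did (r from -0.54 to 0.66). For 5xFAD against WT it was 1 of 5 at 4 months and 2 of 6 at 8 months. In no comparison with 3 or more shared numbers did every pair exceed 0.1. With the replicate block, Itgax stayed at 2.99 and 4.04 in 5xFAD against WT and at -2.26 and -2.28 in TREM2 knockouts against 5xFAD. The block gave 0.35 and -0.32 for CD33 knockouts at 4 and 8 months.

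Counts over all genes moved more. For CD33 knockouts against 5xFAD at 4 months, 638 genes were called, 19 with the block, 1964 with the GAa number as a term, 22 without CD33 knockout replicate 2 and 2346 without replicate 4; at 8 months 374 were, 14 with the covariate, 188 without 5xFAD replicate 5 and 562 without CD33 knockout replicate 4. For 5xFAD against WT, 2181 became 1306 with the block at 4 months and 7428 became 3816 with the covariate at 8 months. For TREM2 knockouts, 311 against 5xFAD at 4 months ran from 155 to 468 (158 without replicate 1), 52 against WT from 26 to 71 (28 without replicate 7), and 5342 against WT at 8 months fell to 902 with the covariate. Double knockouts gave 639 against CD33 knockouts, from 189 with the GAa number to 1225 without CD33 knockout replicate 4 (279 without double knockout replicate 2). They gave 9 against TREM2 knockouts, from 5 to 22 (17 without double knockout replicate 1), and the difference of differences gave 0 to 4. Itgal and Itga4, with as few as 18 and 40 reads in a library, are the members that depth limits most.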
